A study of Mus musculus with 8 samples.

Results

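The genes described here are 9 genes of the circadian clock, Arntl, Per1, Per2, Per3, Cry1, Dbp, Tef, Nr1d1 and Nr1d2, and Usp2, a deubiquitinase. They were taken by gene symbol from the tables of 36432 genes, and all 10 were found once in every table. Usp2 was chosen because its level differed between the groups, and the others to ask whether that difference goes with a shift of the clock. Their control against labelled values are therefore a description, and no test of that contrast is given for them.

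Poly(A) RNA from 8 samples of whole mouse pancreas, of mixed strain, aged 6 to 8 weeks, was sequenced. All 8 carried Ptf1a-Cre +/KI, a Cre recombinase knocked in at Ptf1a, a gene of pancreatic progenitors and acinar cells. The 4 controls carried no other allele in the labels, and the second group of 4 was also Gata6 lox/lox, in which Cre is meant to remove the transcription factor Gata6 from cells that have expressed Ptf1a. Levels below are rescaled FPKM, that is the deposited FPKM (fragments scaled by gene length and library) divided by 100000. Gata6 was 2.76, 2.12, 2.62 and 2.45 in controls 1 to 4 and 4.81, 5.12, 4.90 and 4.12 in the second group, higher and not lower, so those are called labelled libraries 1 to 4. The gene-level value does not resolve the floxed part and did not check the deletion. No source used here gives the hour of collection or the light cycle. 

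The clock of mammalian cells is a feedback loop of transcription. ARNTL (BMAL1) pairs with CLOCK or NPAS2 and binds E-boxes in the genes of its own repressors, the PER and CRY proteins, and of the nuclear receptors NR1D1 and NR1D2 (REV-ERB alpha and beta) and the factors DBP, TEF and HLF. NR1D1 and NR1D2 repress Arntl, Npas2 and Nfil3 through RORE elements, while DBP, TEF and HLF activate genes with D-boxes, so that Arntl and Nfil3 peak at the opposite time of day to Dbp and Nr1d1. Usp2 cycles with the clock in many tissues, and its product removes ubiquitin from clock proteins. In the pancreas both acinar and islet cells have such clocks.

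The 250 bases upstream of the RefSeq start were searched on both strands for the E-box CACGTG, the related E'-box CACGTT, the D-box TTATGTAA, the RORE core AGGTCA and, by name only, a longer RORE that contains the core. The windows of Per1, Cry1, Tef, Per3 and Ciart are shown as windows that held an E-box or a D-box. Those of Bhlhe41 and of another start of Tef, which held an E-box too, and of Timeless, which held a D-box, are not shown. Those of Usp2, Dbp and Arntl held none of the motifs. The bases just after the Usp2 start were found in none of the transcripts used as a check. Other starts of Usp2 were not searched. The windows shown are from RefSeq on GRCm38.p6, 5′ to 3′ in the direction of the gene, and capitals mark every match to a motif.
Per1 (chr11:69098699-69098948, plus strand): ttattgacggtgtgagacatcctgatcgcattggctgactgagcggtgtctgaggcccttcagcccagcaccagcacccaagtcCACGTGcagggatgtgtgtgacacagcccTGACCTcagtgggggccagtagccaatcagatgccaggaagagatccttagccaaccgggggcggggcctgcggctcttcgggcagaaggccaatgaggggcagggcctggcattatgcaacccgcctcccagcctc
Cry1 (chr10:85185055-85185304, minus strand): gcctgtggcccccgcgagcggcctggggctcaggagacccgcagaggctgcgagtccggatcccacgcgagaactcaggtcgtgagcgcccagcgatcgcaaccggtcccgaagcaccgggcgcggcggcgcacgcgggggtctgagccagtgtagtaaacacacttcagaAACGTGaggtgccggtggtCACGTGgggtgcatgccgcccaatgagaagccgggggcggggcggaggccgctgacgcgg
Tef (chr15:81802423-81802672, plus strand): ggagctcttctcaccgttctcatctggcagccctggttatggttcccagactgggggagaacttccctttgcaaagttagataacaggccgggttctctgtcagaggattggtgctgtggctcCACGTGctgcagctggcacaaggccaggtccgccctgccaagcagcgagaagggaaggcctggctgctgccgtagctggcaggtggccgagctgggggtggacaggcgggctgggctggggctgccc
Per3 (chr4:151044666-151044915, minus strand): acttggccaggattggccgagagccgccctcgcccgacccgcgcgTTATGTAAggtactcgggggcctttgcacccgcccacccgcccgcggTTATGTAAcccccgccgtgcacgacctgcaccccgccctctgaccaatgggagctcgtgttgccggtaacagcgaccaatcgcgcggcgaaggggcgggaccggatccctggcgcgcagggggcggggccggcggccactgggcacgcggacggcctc
Ciart (chr3:95882229-95882478, minus strand): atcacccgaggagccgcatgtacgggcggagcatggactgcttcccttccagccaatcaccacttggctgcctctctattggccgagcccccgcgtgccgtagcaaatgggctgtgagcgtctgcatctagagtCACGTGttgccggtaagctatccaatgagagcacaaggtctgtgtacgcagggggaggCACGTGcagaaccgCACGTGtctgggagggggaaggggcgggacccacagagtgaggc
Ciart, a repressor of ARNTL and CLOCK that is not one of the 10, held 3 E-boxes, starting 116, 58 and 44 bases before the start. Per1, Cry1 and Tef held 1 E-box each in these windows, 166, 60 and 127 bases before the start, and Cry1 also an E'-box. Per3 held 2 D-boxes, 205 and 158 bases before the start. The capitals TGACCT in Per1 are the RORE core on the other strand. A promoter was found for 9 of the 10 genes, of which 3 held an E-box in at least 1 window, 2 an E'-box, 1 a D-box, 2 the RORE core and 0 the longer RORE. Of 32851 promoters of the same length 6.02% held the E-box, 3.85% the E'-box, 0.819% the D-box, 14% the RORE core and 0.0426% the longer RORE. These letters are a description, and windows without them say nothing about binding elsewhere.

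Usp2 (ENSMUSG00000032010, mm9 chr9:43875104-43903708) was lower in every labelled library than in any control. Controls 1 to 4 had 4.12, 6.86, 6.38 and 4.65 rescaled FPKM of it, against 0.817, 1.54, 0.634 and 1.38 in labelled libraries 1 to 4. The groups did not overlap, and the highest labelled library stood below the lowest control, with Cufflinks intervals of 1.09 to 2.0 and 3.21 to 5.03. The means were 5.50 ± 1.32 and 1.09 ± 0.44 (SD, n = 4 each), 5.03-fold lower, and the log2 fold change was -1.64 (SE 0.20). The intervals imply 46.4 to 211.8 fragments of Usp2 per library. Gene-level values do not separate the isoforms of Usp2. In bulk tissue fewer cells of a type and less RNA per cell cannot be told apart, here and in what follows.

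Dbp and Tef encode activators of D-box genes that are themselves output genes of the clock, and both were lower on average. Dbp (ENSMUSG00000059824, mm9 chr7:52960458-52965525) was 15.1, 34.3, 28.0 and 25.8 in controls 1 to 4 and 6.66, 6.01, 3.65 and 16.9 in labelled libraries 1 to 4. Labelled library 4 stood above control 1, so the groups overlapped, and the other 3 labelled libraries lay below every control. The log2 fold change was -1.66 (SE 0.42), from a mean of 25.8 ± 8.02 to 8.31 ± 5.89 (SD, n = 4 each). Tef (ENSMUSG00000022389, mm9 chr15:81632851-81657291) was 9.04, 25.1, 20.2 and 21.0 among the controls and 8.11, 7.26, 4.35 and 8.57 among the labelled libraries. The groups of Tef did not overlap, but control 1, at 9.04 with an interval of 4.26 to 13.8, lay within the intervals of labelled libraries 1, 2 and 4. Its log2 fold change was -1.25 (SE 0.33).

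Nr1d1 and Nr1d2 encode the repressors of Arntl. Nr1d1 (ENSMUSG00000020889, mm9 chr11:98629246-98636647) was 15.1, 18.7, 12.9 and 12.3 among the controls and 8.26, 9.83, 8.27 and 10.2 among the labelled libraries, without overlap. The log2 fold change was -0.62 (SE 0.17), a smaller difference than that of Dbp, with less spread between the labelled libraries. Nr1d2 (ENSMUSG00000021775, mm9 chr14:19036568-19071641) was 9.80, 14.3, 13.3 and 11.7 among the controls and 10.8, 7.19, 7.05 and 12.5 among the labelled libraries. Labelled libraries 1 and 4 lay among the controls, and the log2 fold change was -0.38 (SE 0.21).

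Per1, Per2, Per3 and Cry1, repressors of the loop, each overlapped between the groups. Per3 (ENSMUSG00000028957, mm9 chr4:150377761-150418774) was 1.17, 4.26, 3.65 and 3.66 among the controls and 1.82, 1.50, 0.790 and 1.46 among the labelled libraries. Control 1 was thus below 3 of the 4 labelled libraries, while controls 2 to 4 were above all of them, and the log2 fold change was -0.75 (SE 0.29). Per2 (ENSMUSG00000055866, mm9 chr1:93312561-93355907) showed the same order of control 1, at 0.638 against 1.57, 1.58 and 2.04 in controls 2 to 4. The labelled libraries had 0.687, 0.945, 0.317 and 1.02 of Per2, and the log2 fold change was -0.48 (SE 0.25).

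Per1 (ENSMUSG00000020893, mm9 chr11:68908719-68923462), which also responds at once to stimuli such as glucocorticoids, was 2.99, 3.98, 3.96 and 5.68 among the controls and 3.03, 4.94, 1.35 and 3.23 among the labelled libraries. Labelled library 2 was above 3 of the 4 controls, and only labelled library 3 lay below all 4. Cufflinks gave the value of Per1 in labelled library 1 the status FAIL, and the log2 fold change was -0.37 (SE 0.28) with it and -0.38 without that library. Cry1 (ENSMUSG00000020038, mm9 chr10:84594447-84647799) was 0.643, 1.69, 1.25 and 0.950 among the controls and 0.678, 0.828, 0.522 and 0.853 among the labelled libraries. Its mean over the 8 libraries, 0.927, fell short of the minimum of 1 rescaled FPKM for the test, while Per2, at 1.10, passed. Without that minimum the log2 fold change of Cry1 was -0.29 (SE 0.17).

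Arntl (ENSMUSG00000055116, mm9 chr7:120350979-120457636), the positive arm of the loop, had the higher mean among the labelled libraries. It was 0.161, 0.140, 0 and 0.0254 in controls 1 to 4 and 0.776, 0.530, 1.06 and 0.121 in labelled libraries 1 to 4. Labelled libraries 1 to 3 stood above every control, and labelled library 4 stood among them. At most 2.70 implied fragments stood behind each control value and behind labelled library 4, against 103.0, 19.2 and 58.3 in labelled libraries 1 to 3, so no ratio is given. With a mean of 0.352 Arntl was below the minimum for the test, and its log2 fold change without a minimum was 0.55 (SE 0.18).

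**Figure D1:**
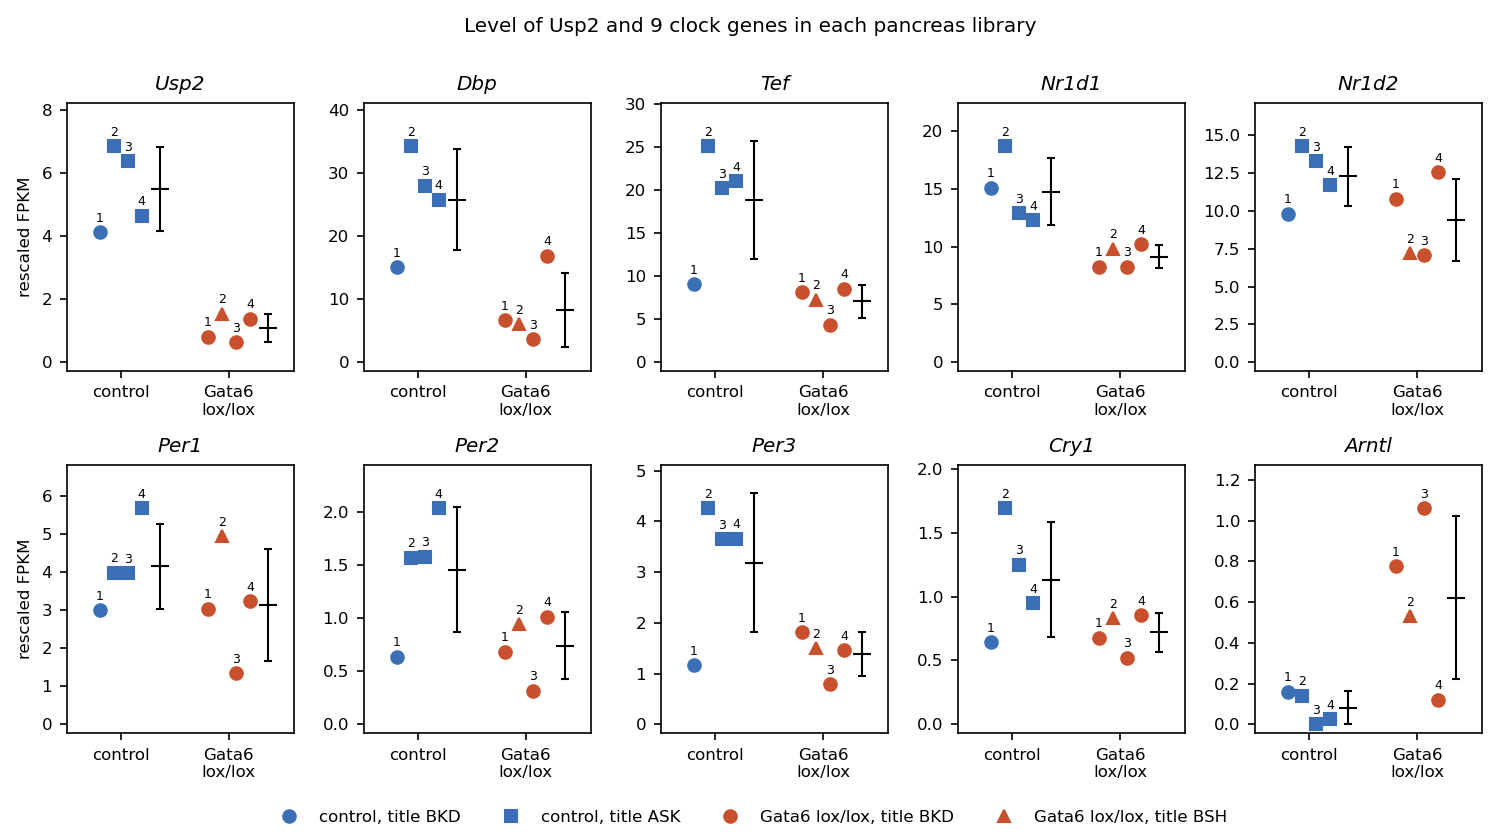
Level of each of the 10 genes in rescaled FPKM (vertical axes, each starting just under 0) in the 4 controls and the 4 libraries labelled Gata6 lox/lox. Numbers are replicates, marker shapes the first letters of the sample title, and bars the mean ± SD. Usp2 does not overlap between the groups, control 1 lies near the labelled libraries in Per2, Per3, Tef and Cry1, and labelled library 4 lies near the controls in Arntl and above control 1 in Dbp.

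The order of the 10 levels, which FPKM allows to be compared because it is per length, changed between the groups. In the controls the mean levels ran from Dbp (25.8) over Tef (18.9), Nr1d1 (14.7), Nr1d2 (12.3), Usp2 (5.50), Per1 (4.15), Per3 (3.19), Per2 (1.46) and Cry1 (1.13) to Arntl (0.0816). In the labelled libraries Nr1d2 (9.40) and Nr1d1 (9.13) came before Dbp (8.31) and Tef (7.07), and Usp2 (1.09) stood after Per1 (3.14) and Per3 (1.39). The ranges of neighbours in these orders overlapped, apart from Nr1d2 and Usp2, and Cry1 and Arntl, both among the controls.

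Of the 8 genes that reached the minimum, 3 were lower without overlap (Usp2, Tef and Nr1d1), where 7.62% of all 11860 genes tested were. None was higher without overlap, against 10.9% of all genes, and 8 of 8 log2 fold changes were negative, against 42.1%. Their median was -0.69 beside 0.10 over all genes. By the limma threshold 0.219% of all genes were higher and 0.194% lower. Nothing is read from these counts, since Usp2 was chosen by this contrast and the rest with its results known.

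Levels within a library do not depend on how the libraries are scaled to each other. Set against Clock, the partner of Arntl, whose own level ranged from 1.29 to 2.03, Usp2 was 238%, 338%, 495% and 275% of Clock in controls 1 to 4 and 42.7%, 92.7%, 37.8% and 89.1% in labelled libraries 1 to 4. Dbp was between 873% and 2176% of Clock among the controls and between 218% and 1094% among the labelled libraries, with labelled library 4 above control 1. On this measure the groups overlapped in Dbp and not in Usp2. Since Usp2 was chosen for its difference between the groups and Clock varied little, this repeats that choice and is no separate result.

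The ratio of Usp2 to the clock output genes differed by partner. As a share of Dbp, Usp2 was 27.3%, 20.0%, 22.7% and 18.0% among the controls and 12.3%, 25.7%, 17.4% and 8.14% among the labelled libraries. Labelled library 2 thus lay within the range of the controls, labelled library 3 just below it, and labelled library 4, whose Dbp was the highest of its group, farthest below it. As a share of Tef, Usp2 was 22.1% to 45.6% among the controls and 10.1% to 21.3% among the labelled libraries, without overlap. As a share of Nr1d1 it was 27.3% to 49.4% and 7.67% to 15.7%, also without overlap. As a share of Per3 it was 127% to 352% and 45.0% to 103%, without overlap too. Set against Ciart, which rests on few fragments, it was 89.6% to 351% and 116% to 408%, with overlap and not lower. Since Usp2 was chosen for its difference between the groups, ratios without overlap are no separate result.

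Genes of opposite phase were compared in the same way. Arntl was 1.07%, 0.748%, 0% and 0.207% of Nr1d1 in controls 1 to 4 and 9.40%, 5.40%, 12.8% and 1.18% in labelled libraries 1 to 4. Labelled library 4, at 1.18%, stood just above control 1, at 1.07%, both resting on few fragments of Arntl. As a share of Dbp, Arntl was 0% to 1.07% among the controls, 11.7%, 8.82% and 29.1% in labelled libraries 1 to 3 and 0.712% in labelled library 4.

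**Figure D2:**
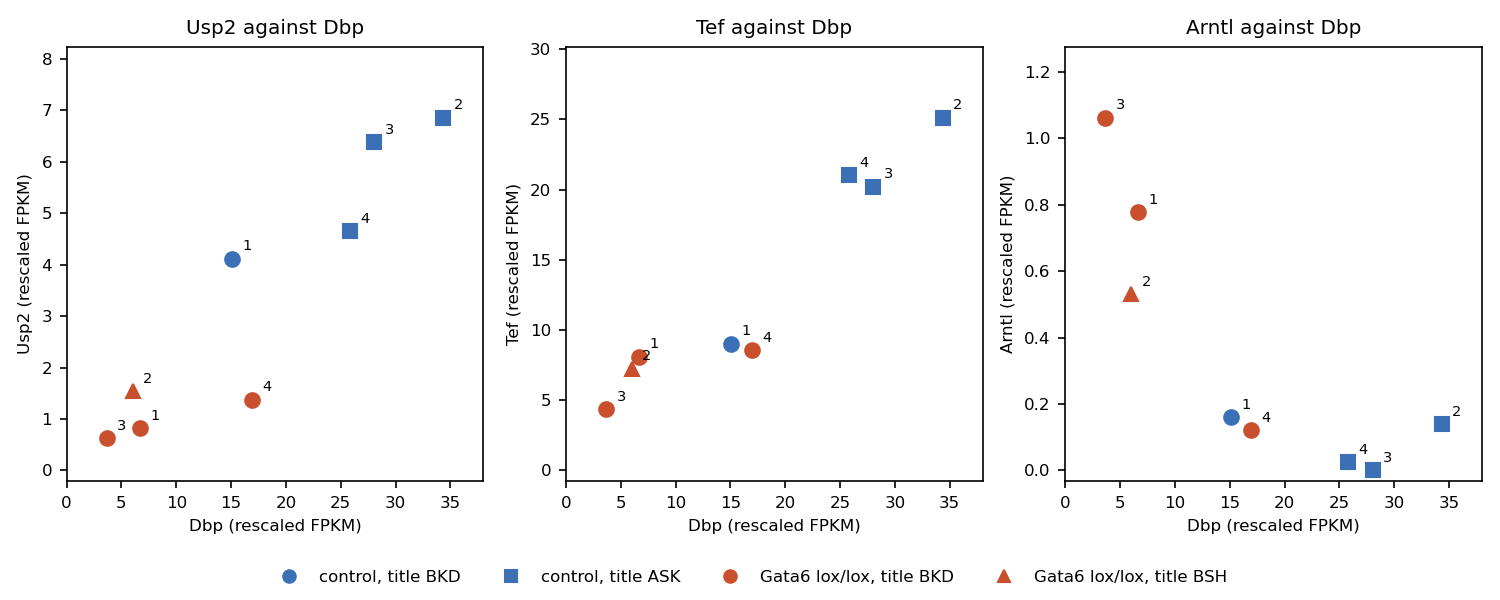
Level of Usp2, Tef and Arntl (vertical axes, rescaled FPKM) against that of Dbp (horizontal axes, rescaled FPKM) in each of the 8 libraries, numbered by replicate, with shapes for the first letters of the title. Control 1 (Dbp 15.1) and labelled library 4 (Dbp 16.9) lie side by side in Tef (9.04 and 8.57) and Arntl (0.161 and 0.121) and apart in Usp2 (4.12 and 1.38).

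Control 1 and labelled library 4 met in most of the 10 genes, and Usp2 was where they stood farthest apart in ratio. Usp2 was chosen because its level differed between the groups, so its distance here is no separate result. The 2 libraries had 15.1 and 16.9 of Dbp, 9.04 and 8.57 of Tef, 1.17 and 1.46 of Per3, 2.99 and 3.23 of Per1, and 0.643 and 0.853 of Cry1. Per2, at 0.638 and 1.02, and Nr1d2, at 9.80 and 12.5, were higher in labelled library 4. Nr1d1, at 15.1 and 10.2, was lower in labelled library 4, with Cufflinks intervals of 13.2 to 17.0 and 8.26 to 12.1 that did not meet. Usp2 was 4.12 in control 1 and 1.38 in labelled library 4, with Cufflinks intervals of 3.21 to 5.03 and 1.02 to 1.74 that did not meet. This is 1 library of each group, chosen after the values were seen, with no replicate check.

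Whether Usp2 and the clock genes move together between samples was asked apart from the group difference, by subtracting each group's mean of log2(rescaled FPKM + 1). This leaves in any difference by title prefix, which coincided with sex. Control 1 was the only control titled BKD, and labelled library 2 the only labelled library with another prefix. The permutation treats the 4 libraries of a group alike, so such a difference cannot be told apart from genes moving together. Over these 8 centred values Usp2 correlated with Cry1 (Pearson r = 0.89, exact permutation p = 0.00347 within groups, two-sided, Benjamini-Hochberg adjusted p = 0.0521 over all 45 pairs of the 10 genes; Spearman rho = 0.83, exact permutation p = 0.0208). Without the 2 libraries farthest from the median of Usp2, control 1 and labelled library 3, r was 0.81. The r of Usp2 was 0.71 with Tef (exact permutation p = 0.0399, adjusted 0.134; rho = 0.52, p = 0.220) and 0.69 with Dbp (exact permutation p = 0.0851, adjusted 0.182; rho = 0.60, p = 0.168), but these rested on the same 2 libraries, without which r was 0.13 and 0.32. With Per1, Per2, Per3, Nr1d1 and Nr1d2 r was 0.45 to 0.66 and with Arntl -0.59, with adjusted p from 0.182 to 0.370 in the exact permutation test and rho from 0.38 to 0.64 and of -0.52 (p from 0.127 to 0.493). Without those 2 libraries r was -0.02, -0.03, -0.14 and -0.05 with Per1, Per2, Per3 and Nr1d2, 0.74 with Nr1d1 and -0.31 with Arntl. No relation of Usp2 to a clock gene passed the threshold at this number of samples.

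Over all 10 genes, Usp2 included, the signs split at Arntl. All 36 pairs that leave out Arntl had a positive within-group r, and all 9 pairs with Arntl a negative one. The highest r was that of Per3 and Tef (r = 0.98, exact permutation p = 0.0122, adjusted 0.0977; rho = 0.74, p = 0.0712), which was 0.70 without control 1 and labelled library 3. Per2 and Tef had r = 0.90 (exact permutation p = 0.0382, adjusted 0.134; rho = 0.60, p = 0.177), but -0.07 without those libraries. Dbp and Nr1d2 had r = 0.89 (exact permutation p = 0.00174, the smallest that the 576 pairings within groups can give, adjusted 0.0521; rho = 0.83, p = 0.00347), and 0.76 without labelled libraries 3 and 4, the farthest from the median of Dbp. Dbp and Tef had r = 0.78 (exact permutation p = 0.00347, adjusted 0.0521; rho = 0.88, p = 0.00868), and 0.92 without that pair of libraries. The lowest r was that of Arntl with Dbp (r = -0.84, exact permutation p = 0.0382, adjusted 0.134; rho = -0.76, p = 0.0556), which was -0.27 without them. Of the 45 pairs 15 had an unadjusted p under 0.05 and 0 an adjusted p under 0.05 (lowest 0.0521). A library's scaling enters all its genes alike, and differences by title prefix or sex within a group were not subtracted here either. With 1 library left out, 32 to 36 of the 36 pairs stayed positive and the lowest adjusted p was 0.0893 to 0.312. Scaled to implied fragment totals the 36 pairs stayed positive but 0 of the 9 pairs with Arntl were negative, and 5 pairs passed. Under quantile normalization 9 of 9 were negative and 6 pairs passed, among them Usp2 with Cry1 and with Per3 (exact permutation adjusted p = 0.0391 each).

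As a description, the tested genes whose centred values were most like those of Usp2 over the 8 libraries were Eny2, Appl2 and Ttpa (r = 0.97 each) and Ube2q2 and Ap1ar (0.96 each), and the most opposite were Rbm34 (-0.99), S100a10 and Vmp1 (-0.98 each), Zfp259 and Ctla2a (-0.97 each). Among 9463 genes Tef ranked 326 and Dbp 367 by likeness to Usp2. Those most like Dbp were Ttc13 (0.97), Ptpn21 (0.95) and Tmem57, Sepsecs and Hexdc (0.94 each), and the most opposite Ddit4, Snx10, Tmem104 and Stab1 (-0.97, -0.97, -0.96 and -0.96) and Smad3 (-0.95). Nr1d2 ranked 19 and Tef 106 by likeness to Dbp, and Usp2 273.

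A further 18 clock genes, which the choice of the 10 did not use, were tested in the same fit. Of the 12 that reached the minimum none passed in limma at a Benjamini-Hochberg adjusted p under 0.05 over all genes (0 of 12, and 2 with an unadjusted p below 0.05), where 0.413% of all genes passed and 30.1% had an unadjusted p under 0.05. Their median log2 fold change was -0.03, with 6 positive and 6 negative, beside 0.10 over all genes. The 2 were Ciart and Cry2.

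Ciart was 1.17, 7.66, 4.76 and 4.33 in controls 1 to 4 and 0.361, 0.378, 0.549 and 1.12 in labelled libraries 1 to 4. Control 1 again stood next to the labelled libraries, and labelled library 4 next to control 1. The log2 fold change was -1.64 (SE 0.39, limma adjusted p = 0.0937), and its values rest on 1.87 to 15.7 implied fragments. It passed without control 1 (-2.03, limma adjusted p = 0.0321) and without labelled library 4 (-1.78, adjusted p = 0.0369). Its log2 fold change was -0.40 within BKD, where control 1 is the only control, -2.22 within ASK plus BSH, where labelled library 2 is the only labelled one, and -1.31 with the prefix as a covariate (limma adjusted p = 0.641, 0.232 and 0.302). In the first 2 fits the lone library is assumed to vary like the others.

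Cry2, the second cryptochrome, was lower without overlap, at 2.05 to 2.96 among the controls and 1.38 to 2.03 among the labelled libraries (means 2.42 ± 0.39 and 1.68 ± 0.27, SD, n = 4 each, log2 -0.35, SE 0.13, limma adjusted p = 0.138). The groups of Cry2 nearly met, at 2.05 and 2.03, and its values rest on 5.65 to 103.3 implied fragments. Hlf, the third factor of the DBP family, had 1.68 ± 1.19 and 0.577 ± 0.24 (SD, n = 4 each; log2 -0.68, limma adjusted p = 0.169). Bhlhe41, a repressor at E-boxes, had a log2 fold change of -0.56 and its paralog Bhlhe40 one of 0.20. Rora, an activator at RORE elements, had -0.22, and Clock had 0.02 (SE 0.13). The kinases of PER proteins Csnk1d and Csnk1e had 0.28 and 0.41, and Timeless 0.52, on 0.156 to 20.5 implied fragments. Adjusted p in limma for these genes from Bhlhe41 to Timeless ran from 0.222 to 0.942.

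The other 6 of the 18 were below the minimum. Among them Nfil3, the D-box repressor whose gene is under RORE control as Arntl is, was 0.404, 0.348, 0.108 and 0.328 among the controls and 1.23, 0.964, 2.44 and 0.524 among the labelled libraries, higher without overlap. In limma without a minimum its log2 fold change was 0.76 (SE 0.24, adjusted p = 0.192). Npas2, the third gene of that kind, was 0.0278, 0.0239, 0 and 0 among the controls and 0.219, 0.0178, 0.207 and 0.0426 among the labelled libraries (limma adjusted p = 0.252 without a minimum). Labelled libraries 1 and 3 were the high ones in Npas2, and in Nfil3, as in Arntl, labelled library 4 was the lowest of its group. Arntl2, the paralog of Arntl, was lower on average, at 1.35 ± 0.42 among the controls and 0.65 ± 0.32 among the labelled libraries (SD, n = 4 each; log2 -0.52, SE 0.19, limma adjusted p = 0.207 without a minimum), with overlap and on 0.659 to 15.4 implied fragments. Nfil3, Npas2 and Arntl2 were chosen after their values were seen.

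**Figure D3:**
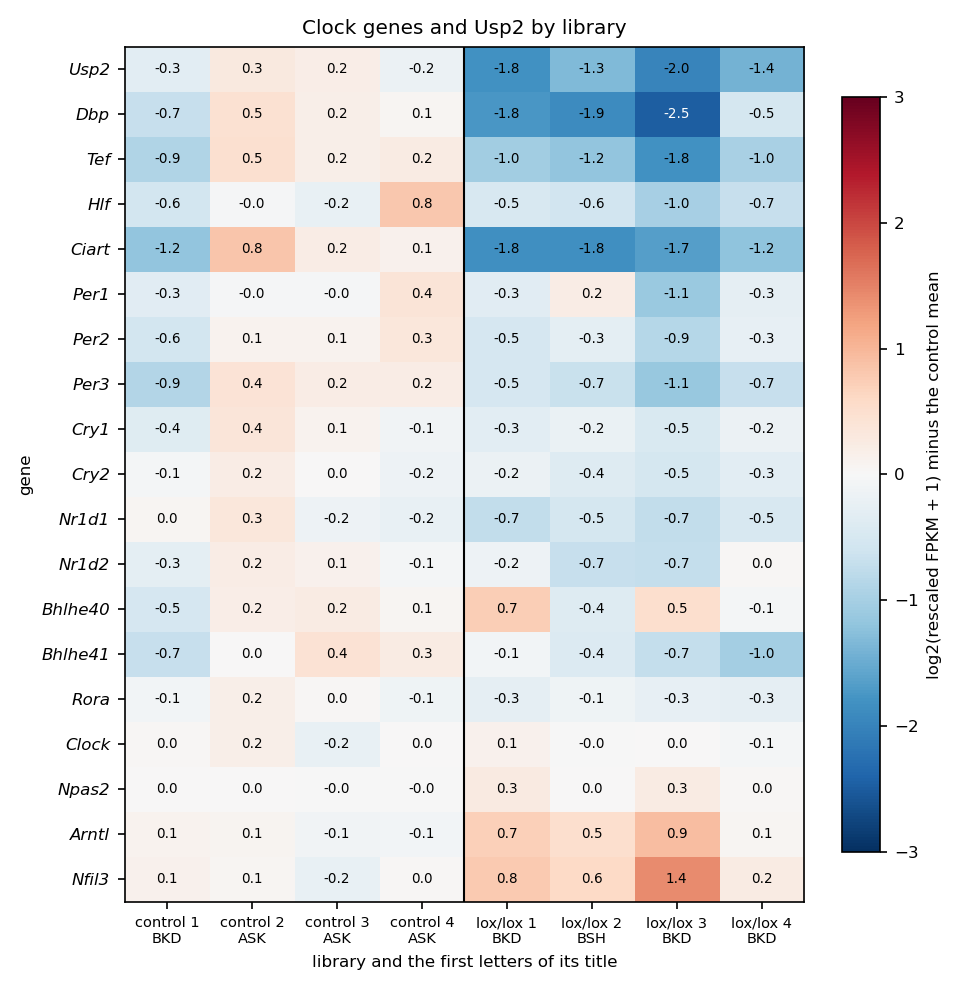
Difference of log2(rescaled FPKM + 1) from the mean of the 4 controls for Usp2 and clock genes (rows) in each library (columns, with the first letters of the title). Blue is lower and red higher. Arntl and Nfil3 are red and Dbp, Tef, Ciart and Usp2 blue in labelled libraries 1 to 3, and control 1 is blue in Dbp, Tef, Ciart and Per3 but close to 0 in Arntl.

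The list of clock output genes outside the loop held Noct, the kinase gene Wee1, Klf9, Klf10, Nampt, Por, Tspan4 and Tsc22d3. In limma 0 of 8 passed, with 3 under an unadjusted p of 0.05, beside 0.413% and 30.1% of all genes. The median log2 fold change was 0.35, with 5 positive and 3 negative. The 3 with an unadjusted p under 0.05 did not overlap between the groups. Nampt and Klf10 were higher (log2 0.64 and 0.87, limma adjusted p = 0.0993 and 0.113). Klf9 was lower (log2 -0.47, limma adjusted p = 0.136). Over all genes 10.9% were higher and 7.62% lower without overlap. Tsc22d3 and Tspan4, which cycle in many organs as Usp2 does, were 12.7 ± 2.66 and 10.1 ± 1.83 among the controls and 11.7 ± 3.27 and 12.5 ± 2.81 among the labelled libraries (SD, n = 4 each; limma adjusted p = 0.700 and 0.367).

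Genes that respond to glucocorticoids, hormones that also set Per1, were examined as a second input to the clock. None of 8 tested passed in limma (0 of 8, 3 with an unadjusted p below 0.05), beside 0.413% and 30.1% of all genes. The median log2 fold change was 0.02. The 3 were Errfi1 (log2 0.91, limma adjusted p = 0.0994), Ddit4 (0.80, adjusted p = 0.120) and Klf9 (-0.47, adjusted p = 0.136). Errfi1 was higher and Klf9 lower without overlap, where 10.9% and 7.62% of all genes were. Sgk1 was 17.7 ± 3.16 and 11.4 ± 8.07 (SD, n = 4 each; limma adjusted p = 0.221). Fkbp5, the chaperone used as a marker of receptor activity, was 2.00 ± 0.81 and 2.09 ± 0.76 (SD, n = 4 each; limma adjusted p = 0.926), and was picked after its values were seen. Of the immediate early genes 0 of 5 tested passed in limma (4 with an unadjusted p below 0.05), beside 0.413% and 30.1% of all genes. Their median log2 fold change was 0.94. The summed level of all 8 was 8.80 to 15.4 for controls, against 30.3, 14.6, 41.2 and 16.9 in labelled libraries 1 to 4. Jun had a log2 fold change of 0.94 (limma adjusted p = 0.109) and Ier2 one of -0.00 (adjusted p = 0.993). The part of these genes in the levels of Per1 was not tested.

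The USP family, deubiquitinases like Usp2, was tested in the same fit. Of the other 50 USP genes, counted by gene ID, 33 reached the minimum. In limma 0 of 33 passed (6 with an unadjusted p below 0.05), beside 0.413% and 30.1% of all genes. Usp9x was counted under both of its gene IDs, which differed (log2 0.65 and -0.05, limma adjusted p = 0.114 and 0.920). Their log2 fold changes ran from -0.49 to 1.03 with a median of 0.16, and Usp2, chosen for its own value, had -1.64. Those of highest mean were Usp3 (0.12, limma adjusted p = 0.614) and Usp48 (0.26, adjusted p = 0.369). USP2 has been described to deubiquitinate the proteins of 4 genes, Mdm2, Mdm4, Fasn and Ccnd1. Of these 0 passed in limma (2 with an unadjusted p below 0.05), beside the same shares of all genes. The 2 were Mdm2 (log2 0.75, limma adjusted p = 0.106) and Mdm4 (0.66, adjusted p = 0.155). Mdm2 was higher without overlap, where 10.9% of all genes were. The fatty acid synthase gene Fasn had 14.5 ± 7.21 and 38.3 ± 25.3 (SD, n = 4 each; limma adjusted p = 0.207) and Ccnd1, which encodes cyclin D1, 5.26 ± 0.41 and 4.73 ± 3.80 (SD, n = 4 each; limma adjusted p = 0.537).

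The sign of most of the 10 genes depended on the scaling between libraries. As deposited, 8 of 8 tested members had negative log2 fold changes. Scaled to an equal sum outside the digestive enzymes 4 of 8 did. Scaled to implied fragment totals 2 of 8 did, Usp2 (-0.70, SE 0.33) and Dbp (-0.40, SE 0.44), that of Dbp smaller than its SE. Over all genes the median was 0.83 and 1.13 there in place of 0.10, and the median of the members, -0.00 and 0.17, was below it in both. Usp2 and Dbp were negative in every scaling tried, and Arntl positive in every one, at 0.52 after median-ratio scaling, 0.17 after quantile normalization, 0.87 under an equal sum and 1.02 under implied totals.

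**Figure D4:**
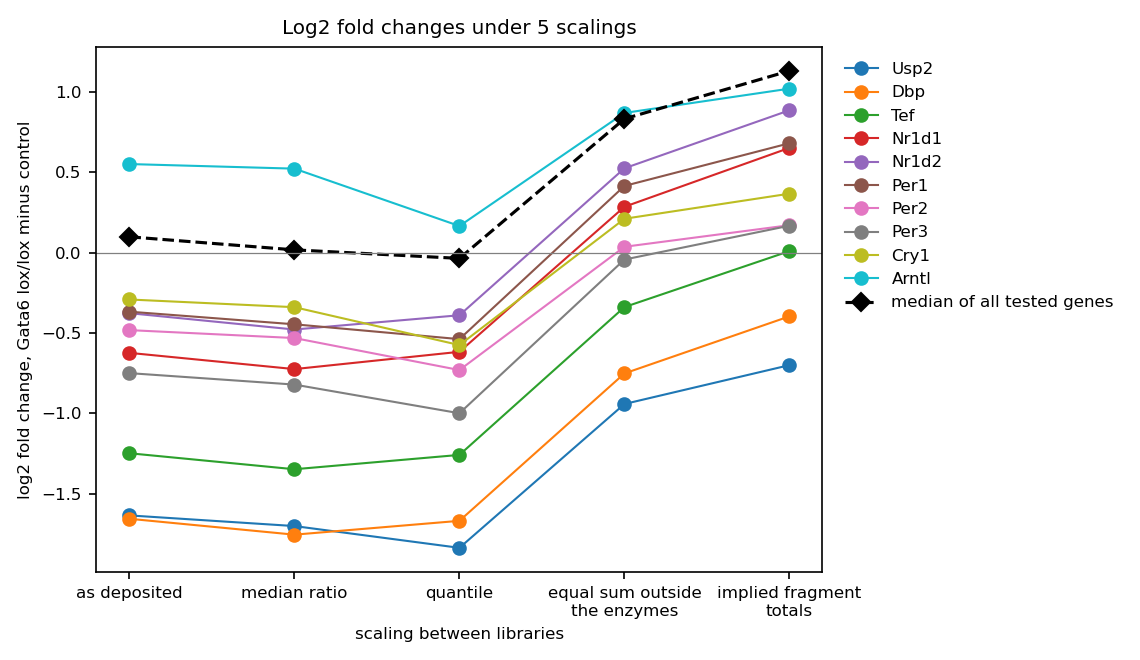
Log2 fold change (labelled Gata6 lox/lox minus control, vertical axis) of the 10 genes under 5 scalings between libraries (horizontal axis), with the median of all tested genes dashed. Under an equal sum outside the enzymes and under implied fragment totals the lines rise with that median (0.83 and 1.13), and Usp2 and Dbp remain below 0.

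The title prefix coincided with sex, so that the 2 cannot be told apart, and was partly confounded with genotype. Titles began with BKD for control 1 and for labelled libraries 1, 3 and 4, all of which expressed the Y-linked Eif2s3y, while controls 2 to 4 (ASK) and labelled library 2 (BSH) expressed Xist. No source used here says what the prefix stands for. In the fits the prefix was coded as BKD or other, with ASK and BSH merged. ASK holds only controls and BSH only labelled library 2, so a difference between ASK and BSH cannot be told apart from genotype. The log2 fold change of Usp2 was -1.42 within BKD, -1.44 within ASK and BSH together and -1.43 with the prefix so coded as a covariate. That of Dbp was -0.90, -2.11 and -1.50, and that of Tef -0.37, -1.48 and -0.93. Per3 had 0.09, -0.96 and -0.43 and Arntl 0.46, 0.54 and 0.50. The difference between the 2 sets of titles (ASK and BSH minus BKD) was fitted as an interaction term in limma. Over the members and other clock genes tested it ran from -1.82 in Ciart to 0.34 in Per1. It was -1.20 in Dbp, -1.11 in Tef, -1.05 in Per3 and -0.02 in Usp2. In this fit 2 of the 4 cells hold 1 library, so it cannot decide whether the difference depends on the prefix, and nothing is concluded from it.

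The RNA of acinar markers differed widely between the labelled libraries. All 7 acinar markers had negative log2 fold changes, 6 of them lower without overlap, but 0 of 7 passed in limma (5 with an unadjusted p below 0.05). Over all genes 42.1% of log2 fold changes were negative and 7.62% of genes lower without overlap, while 0.413% passed and 30.1% had an unadjusted p under 0.05. Their summed level was 206134 to 275958 for controls, against 868, 96525, 12571 and 118023 for labelled libraries 1 to 4, led by Cela2a and Cela1, and no marker was at 0. The 2 libraries with the least acinar RNA, 1 and 3, also had the least Usp2 (0.817 and 0.634) and the most Arntl (0.776 and 1.06). Without them Usp2 had a log2 fold change of -1.38, Dbp -1.20 and Arntl 0.28.

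Of the other cell types, 7 of 7 adipocyte, 5 of 5 myeloid and 5 of 5 fibroblast markers were positive, where 42.1% of all log2 fold changes were negative. The adipocyte markers summed to 53.8 to 136.3 among the controls and to 229.1 to 358.1 among the labelled libraries. Of them 3 passed in limma, Cd36, Cidec and Plin4 (adjusted p = 0.0268, 0.0363 and 0.0423), where 0.219% of all genes passed as higher. The myeloid markers summed to 90.6 to 143.7 and 187.9 to 725.1, and the fibroblast markers to 193.2 to 275.5 and 311.5 to 1199. The genes of highest mean in the lists in which none passed had these log2 fold changes, with limma adjusted p in parentheses. Of the elastase genes, Cela1 had -4.23 (0.141) and Cela2a -3.90 (0.137). Of the myeloid markers, Lyz2 had 1.59 (0.104) and C1qb 1.91 (0.103). Of the fibroblast markers, Dcn had 0.97 (0.132) and Sparc 1.39 (0.109). Of the insulin genes, Ins1 had 1.26 (0.231) and Ins2 0.78 (0.422). Of the B cell markers, Cd79a had 0.65 (0.325) and Ms4a1 0.57 (0.298). Of the endothelial markers, Pecam1 had 0.14 (0.577) and Cdh5 0.16 (0.5). Another endothelial marker, Kdr, named after its values were seen, was lower without overlap, at 2.87 to 3.55 among the controls and 1.97 to 2.51 among the labelled libraries, with -0.30 (0.138). Of the 3 duct markers tested, 1 had a positive log2 fold change and 2 a negative one. Krt19 had 1.13 (0.119), and Sox9, named after its values were seen, had -0.07 (0.805). The part of these cells in the levels of Usp2 and the clock genes was not tested.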

How the data were processed

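The authors deposited 1 Cufflinks gene table per sample, which holds the FPKM, its interval and a status. Tools in the submitters' processing notes are Cufflinks 2.0.1, TopHat2 2.0.4, Bowtie and CASAVA 1.8, with mm9 and NCBIM37 as builds. No source used here gives the gene models or the scaling option. RNA integrity numbers were 7.1 to 8.8, per the labels' protocols. The deposited FPKM sums ran from 2.34e+10 to 1.86e+11, so all values were divided by 100000, and entries sharing a gene ID were summed. Fragments implied by the interval widths totalled 4815873 to 7451554 per library; these are estimates from intervals, to which no count test was applied. The 8 genes with status HIDATA (no estimate) in any library were left out.

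Testing used limma 3.58.1 (R 4.3.3) with an intensity trend on the log2 of the deposited, rescaled FPKM plus 1, for 11860 genes whose mean reached 1, two-sided, and Benjamini-Hochberg adjusted over all of them at 0.05. Fold changes are on that scale, which understates those of low genes. The fit was tested on simulated data. Replicates are separate samples per the labels, which do not say whether they are separate animals, and p-values measure only the spread between them. Starts were raised by 1 to count from 1, since in 6996 of 8317 single-exon genes end minus start equalled the annotated length. The members and lists were chosen with earlier results of these data known. The genes named are the 10 members, Gata6, the tested genes of the clock list, up to 4 passing genes of each further list or else the 2 of highest mean, and the 5 genes most and least like Usp2 and Dbp; others were picked after their values were seen. Values of 3 genes of these lists are not reported here. Alternatives were 2 pseudocounts, 2 expression minimums, 4 scalings, left-out libraries, the title prefix (coded as BKD or other) and 3 variance models.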

Additional observations from a re-analysis of the deposited data

Results flagged for a closer look

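In a check of 42 groups of 4 libraries for 1 library far from the other 3, Rora was at 1.58 rescaled FPKM in labelled library 2, where the other labelled libraries had 1.33 to 1.35. Chance gives about 1 such library in 20 groups.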

How the results depend on the processing

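In limma 26 genes were higher and 23 lower. The number higher was 14 at a pseudocount of 5, 12 after quantile normalization, 6 under implied fragment totals, 11 without labelled libraries 1 and 3, 0 within BKD (586 genes at an unadjusted p under 0.05), 78 within ASK plus BSH, 4 with the prefix as a covariate and 2316 with sample weights. The number lower was 11 without an expression minimum, 15 at a minimum of 5, 0 under an equal sum outside the enzymes and 0 under implied fragment totals (5143 and 7815 genes at an unadjusted p under 0.05), 2 without labelled libraries 1 and 3, 6 within BKD, 3 within ASK plus BSH, 1 with the prefix and 1478 with sample weights. Leaving out 1 library gave 7 to 1382 higher and 3 to 1206 lower, the most without labelled library 4. Of the 12 other clock genes 0 passed, 2 with sample weights (Ciart and Cry2), and 0 to 1 with 1 library left out. The cause was not tested.

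These log2 fold changes turned in sign. Under an equal sum outside the enzymes Per1 was 0.42, Per2 was 0.0374, Cry1 was 0.21, Nr1d1 was 0.29, Nr1d2 was 0.53, Cry2 was 0.35, Rora was 0.41 and Bhlhe41 was 0.0782. Under implied fragment totals Per1 was 0.68, Per2 was 0.17, Per3 was 0.17, Cry1 was 0.37, Tef was 0.0104, Nr1d1 was 0.65, Nr1d2 was 0.89, Cry2 was 0.61, Rora was 0.66 and Bhlhe41 was 0.26. After median-ratio scaling Clock was -0.0537. After quantile normalization Clock was -0.20. Within BKD Per2 was 0.0097, Per3 was 0.0926, Cry1 was 0.0318, Nr1d2 was 0.0103, Clock was -0.0103 and Bhlhe41 was 0.0858. Within ASK plus BSH Per1 was 0.12, Csnk1d was -0.58, Csnk1e was -0.21, Timeless was -0.12 and Bhlhe40 was -0.55. With the prefix as a covariate Clock was -0.001. Without labelled libraries 1 and 3 Clock was -0.0349, Csnk1d was -0.30 and Bhlhe40 was -0.22. With 1 library left out Clock ran from -0.0591 to 0.0756. The within-group r of Usp2 with Arntl was 0.31 under the equal sum, 0.38 under implied totals and 0.010 without labelled libraries 1 and 3. Gata6 kept its sign in every setting, with adjusted p from 0.0159 to 0.631 in limma. At a pseudocount of 0.1 Usp2 was -2.28 and Arntl 1.87, and at 5 they were -0.78 and 0.14.

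No paired analysis was possible because the titles carry no replicate numbers shared between the groups. The expression minimum does not enter the correlations. Low fragment numbers limit Arntl, Arntl2, Bhlhe41, Ciart, Cry2, Csnk1d, Csnk1e, Hlf, Nfil3, Npas2 and Timeless in at least 1 library each.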
